A study of Mus musculus with 12 samples.

Results

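Genes of activin, TGF-β and BMP signaling were followed in pancreata of mouse embryos with a Cre-driven deletion of β-catenin. A list of 45 genes holds the ligands, receptors, secreted and membrane antagonists, Smads and a few targets and matrix partners of the pathway. Every probe set whose only gene symbol is one of these was taken, with no filter on its level, and all 96 such probe sets of 44 genes entered the test, out of 45037 probe sets and 18193 named genes on the array. A probe set is a group of short probes that measures one stretch of a transcript, and the 44 genes have between 1 and 6 each. Gdf15, the remaining gene of the list, is not analysed here.

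Ligands of this family bind pairs of type I and type II serine/threonine kinase receptors. The type I receptor then phosphorylates a Smad protein (Smad2 and Smad3 after activin, Nodal and TGF-β, Smad1 and Smad5 after BMPs), which joins Smad4 and enters the nucleus, while Smad6 and Smad7 inhibit the cascade. In the embryonic pancreas, activin and TGF-β signals are known to shape the balance of endocrine and exocrine cells, and many of the ligands and antagonists come from the mesenchyme around the epithelium.

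The series holds 12 arrays, each hybridised with RNA of a single embryonic mouse pancreas, and E14.5 and E16.5 are represented by 4 β-catenin KO embryos and 2 wildtype embryos apiece. The KO embryos were Pdx1Cre/+; beta-cateninflox/flox, and all embryos came from crosses of Pdx1Cre/+; beta-cateninflox/+ mice, but the labels do not say which of these alleles a wildtype embryo carried. Cre was driven by the Pdx1 promoter, which is active in the pancreatic epithelium and not in its mesenchyme, and the study describes the deletion as probably mosaic. The whole organ was dissected, so epithelium, mesenchyme, vessels, nerves and blood cells were measured together, and for every transcript fewer cells of a type and less RNA per cell cannot be told apart. The first day is written E14.6 in one text field but E14.5 in the array names, and E14.5 is used here.

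Each deposited value is the ratio of an array to its day's wildtype mean, so 1 is that mean and the 2 wildtype values of a day mirror each other around it. Ratios of this kind carry no transcript level and no developmental trend, so levels are compared neither between genes nor between days. Log2 ratios were compared with limma over all 45037 probe sets, with Benjamini-Hochberg adjusted p values and a limit of 0.05, and a log2 difference below is KO minus wildtype with its standard error. Wildtype values are given in the order 14.5_WT_522B, 14.5_WT_522C at E14.5 and 16.5_WT_622A, 16.5_WT_628G at E16.5, and KO values in the order 14.5_KO_540C, 14.5_KO_540G, 14.5_KO_615A, 14.5_KO_615B and 16.5_KO_541J, 16.5_KO_541L, 16.5_KO_591C, 16.5_KO_591D, the names of the arrays. Nothing in the labels explains the numbers in these names, no number occurs in both genotypes, and number and genotype cannot be told apart. The 3 probe sets of Ctnnb1, which encodes β-catenin, lay between 0.620 and 1.31 in the KO pancreata, none passed, and their place relative to the deleted exons is not known here.

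At E16.5 probe sets for Tgfbr2, Fstl1 and Tgfbi rose in the KO pancreata and a probe set for Acvr1c fell. These were 4 of 96 member probe sets (4.17%), against 2.62% of all probe sets tested. With 1 probe set per gene, chosen by its name alone, none of these 4 was taken. That choice left 0 of 44 genes called at E16.5, against 3.03% of all named genes. At E14.5 limma called 0 of 96, against 0.0111% of all probe sets, while 11 had an unadjusted p under 0.05 (11.5%, against 6.86% of all probe sets). The methods' t-test without correction called 7 of 96 there, against 1206 higher and 1063 lower among all 45037. After Benjamini-Hochberg adjustment it called 0. At E16.5 the unadjusted limit was met by 34 member probe sets (35.4%, against 16.6% of all), 25 of them higher (8.48% of all) and 9 lower (8.16% of all). The called probe sets were 3 higher (0.802% of all) and 1 lower (1.82% of all). All 4 calls were lost with a trended and robust variance, with E16.5 fitted alone and with quantile normalization. Over all probe sets these settings called 7 higher and 79 lower, 13 and 146, and 10 and 61. The wildtype arrays, as ratios to their own mean, were narrower (interquartile range of log2 ratios 0.11 to 0.15) than the KO arrays (0.20 to 0.41). Quantile normalization gives all arrays the same distribution, so its weaker KO differences are partly set by that step and are not particular to the members. Without 16.5_KO_591D 16 member probe sets were called, but calls over all probe sets also rose, to 1572 higher and 1290 lower, against 361 and 821 with all arrays. With quantile normalization 11 member probe sets met the unadjusted limit at E16.5 (11.5%, against 6.66% of all probe sets) and 8 at E14.5 (8.33%, against 4.48% of all). The same normalization brought the E16.5 log2 difference to -1.09 for Bmp7 1418910_at, -0.77 for Acvr1c 1443225_at, 0.71 for Bambi, 0.56 for Tgfb2 1450923_at, 0.51 for Bmp2 and for Ltbp1, 0.36 for Smad2 1442062_at and 0.15 for Smad7 1443771_x_at, each over 1.5 times nearer to 0 than the values given for them in the next paragraphs.

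More member probe sets were clear of the wildtype at E16.5 than at E14.5. All 4 KO values lay beyond both wildtype values in 20 of 96 member probe sets at E14.5 (20.8%, against 16.2% of all probe sets), 13 above (8.17% of all) and 7 below (8.06% of all). At E16.5 this held for 35 of 96 (36.5%, against 25.6% of all), 24 above (14.5% of all) and 11 below (11.1% of all). With quantile normalization the counts were 11 at E14.5 (11.5%, against 9.38% of all) and 19 at E16.5 (19.8%, against 15.5% of all). With 1 probe set per gene, chosen by its name alone, 30 of the 44 genes were higher in the KO at E14.5 and 29 at E16.5, against 53% and 57.5% of all named genes. Their median log2 difference was 0.15 on each day, against 0.01 and 0.03 over all named genes. Over all 96 member probe sets, 52 were higher at E14.5 (54.2%, against 55.4% of all probe sets), with a median of 0.02 for members and for all. The members therefore did not stand out in direction at E14.5 when all their probe sets were counted. At E16.5 66 were higher (68.8%, against 56.1% of all), with a median of 0.12, against 0.03. These shares describe the list and were not tested, and the probe sets of one gene share their transcript.

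**Figure D1:**
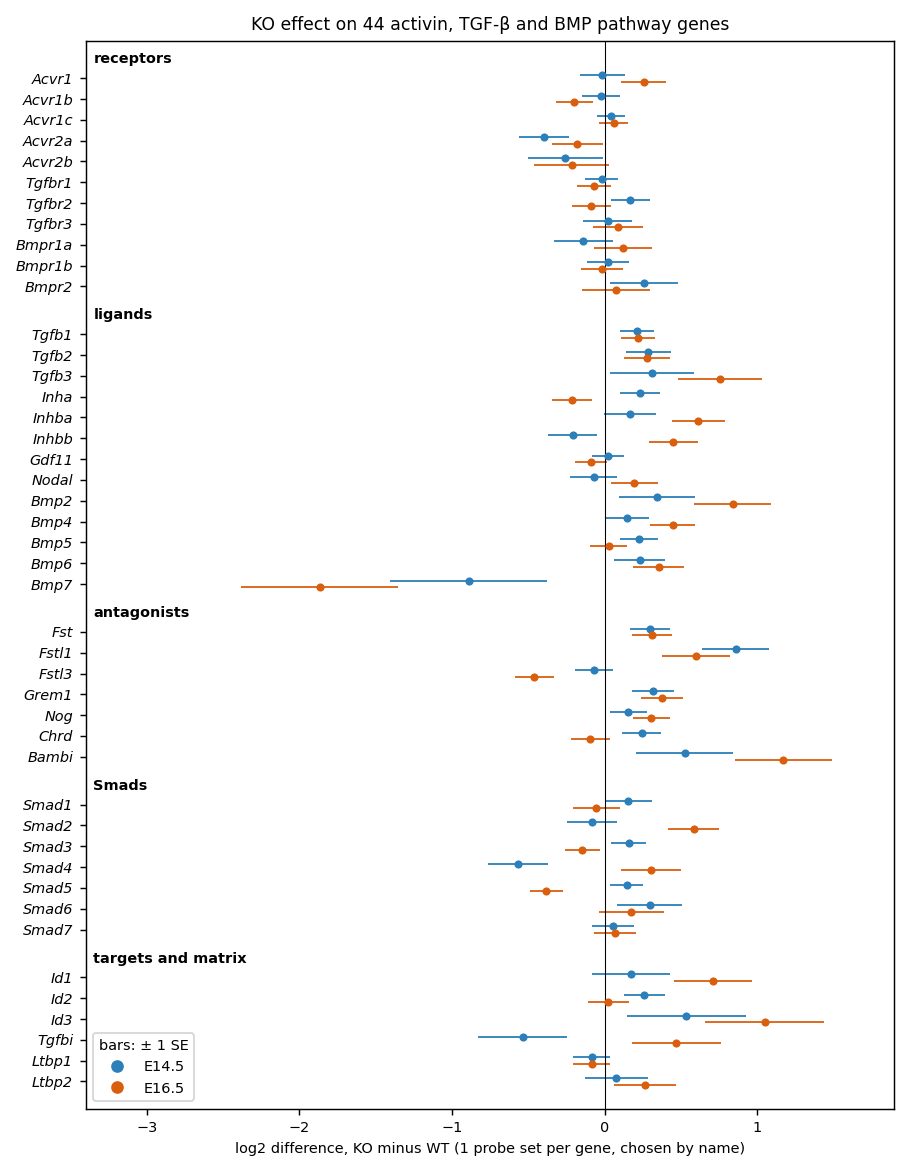
Log2 difference between KO and wildtype pancreata for 44 pathway genes, 1 probe set per gene chosen by its name, grouped by role, with points at E14.5 and E16.5 and bars of 1 SE. Bmp7 lies lowest on both days (-0.89 and -1.87), Bambi lies highest at E16.5 (1.17), and most ligands and antagonists lie to the right of 0. None of the probe sets called at E16.5 is among those shown.

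The stretches just before the start of the 4 genes with a called probe set are shown because they lie next to the transcripts that passed at E16.5. They are the 250 bases upstream of the annotated start in RefSeq, assembly GRCm38.p6, written 5′ to 3′ on the strand of the gene. The window of Tgfbr2 lies at chr9:116175364-116175613, minus strand, that of Acvr1c at chr2:58357759-58358008, minus strand (the more upstream of its 2 starts in the table), that of Fstl1 at chr16:37776805-37777054, plus strand, and that of Tgfbi at chr13:56609336-56609585, plus strand. Capitals mark matches, on either strand, to the Smad palindrome GTCTAGAC, the shorter Smad element CAGAC, the GC-rich Smad element GGCGCC, or the Tcf element CTTTGAT, none of which contains another.
Tgfbr2: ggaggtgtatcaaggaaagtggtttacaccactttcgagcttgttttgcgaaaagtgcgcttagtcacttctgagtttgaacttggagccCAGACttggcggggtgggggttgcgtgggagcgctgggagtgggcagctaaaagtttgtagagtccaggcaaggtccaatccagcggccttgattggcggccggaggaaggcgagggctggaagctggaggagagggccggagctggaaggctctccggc
Acvr1c: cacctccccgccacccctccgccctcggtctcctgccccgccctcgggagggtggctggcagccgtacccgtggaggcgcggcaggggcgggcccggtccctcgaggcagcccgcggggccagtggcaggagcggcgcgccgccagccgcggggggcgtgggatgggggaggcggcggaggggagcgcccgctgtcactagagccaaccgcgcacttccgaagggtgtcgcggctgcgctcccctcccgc
Fstl1: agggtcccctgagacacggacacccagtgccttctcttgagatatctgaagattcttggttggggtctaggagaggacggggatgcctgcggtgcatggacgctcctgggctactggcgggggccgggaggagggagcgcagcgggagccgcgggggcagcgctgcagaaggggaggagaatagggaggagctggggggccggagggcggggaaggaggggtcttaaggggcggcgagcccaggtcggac
Tgfbi: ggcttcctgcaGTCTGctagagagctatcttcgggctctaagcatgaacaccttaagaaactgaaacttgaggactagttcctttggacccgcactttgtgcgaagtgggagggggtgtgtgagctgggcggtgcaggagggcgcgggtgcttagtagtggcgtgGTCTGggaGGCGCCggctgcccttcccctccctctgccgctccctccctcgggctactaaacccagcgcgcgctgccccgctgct

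The Tgfbi window holds the shorter element CAGAC at 2 places and the GC-rich element at 1, and the Tgfbr2 window holds CAGAC at 1 place. In the windows of Acvr1c and Fstl1 these letters do not occur. Of 32851 promoter windows of the same length in the table, 42.2% hold CAGAC, 9.59% the GC-rich element, 3.21% the Tcf element and 0.167% the palindrome, so a match to CAGAC is common. The matches describe the sequence and say nothing of binding.

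Of the 13 ligand genes, 10 were higher in the KO on each day (76.9%, against 53% of all named genes at E14.5 and 57.5% at E16.5). Of their 24 probe sets 0 passed on either day, though an unadjusted p under 0.05 was found for 3 at E14.5 (12.5%, against 6.86% of all probe sets) and for 11 at E16.5 (45.8%, against 16.6% of all). Tgfb2, one of the 3 TGF-β ligands, read at 2.07, 1.86, 1.60 and 2.25 times the wildtype mean in the E14.5 KO pancreata on probe set 1450923_at and at 3.56, 2.13, 1.64 and 1.24 at E16.5. The wildtype pancreata read 1.08 and 0.915 at E14.5 and 0.931 and 1.07 at E16.5, so no KO pancreas reached down to them on either day. The log2 differences of 0.95 ± 0.31 (SE) and 0.99 ± 0.31 (SE) did not pass (limma adjusted p = 0.599 and 0.125). A further Tgfb2 probe set, 1423250_a_at, gave 0.66 at E14.5, with KO values of 1.82, 1.64, 1.21 and 1.72 against 1.0003 and 0.9997, and 0.81 at E16.5, where 16.5_KO_591D at 1.21 lay just under 16.5_WT_628G at 1.22. On the other 2 Tgfb2 probe sets the log2 differences were 0.29 and 0.11 at E14.5 and 0.28 and 0.16 at E16.5.

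Bmp2 and Bmp7, both BMP ligands, lay on opposite sides of the wildtype. Bmp2 read 2.02, 2.42, 1.62 and 1.30 in the E16.5 KO pancreata, against 0.966 and 1.03 in the wildtype, with all 4 above (log2 difference 0.84 ± 0.25 (SE), limma adjusted p = 0.105). Bmp7 on probe set 1418910_at read 0.195, 0.143, 0.280 and 0.436, against 1.47 and 0.526. All 4 KO pancreata lay below both wildtype pancreata there, but the wildtype pair itself lay far apart, and the log2 difference of -1.87 ± 0.52 (SE) had the widest error of the ligands (limma adjusted p = 0.0822). It was -1.12 without 16.5_WT_622A (limma adjusted p = 0.474) and -2.61 without 16.5_WT_628G (limma adjusted p = 0.0630). At E14.5 the same probe set read 0.398, 0.424, 1.09 and 0.444, with 14.5_KO_615A at the wildtype level and the other 3 below. The second Bmp7 probe set, 1435479_at, read 0.481, 0.671, 0.832 and 0.519 at E14.5, then 0.551, 0.459, 0.640 and 0.710 at E16.5, and lay under the wildtype pair on each day (log2 differences -0.70 and -0.77, limma adjusted p = 0.590 and 0.0997). The third, 1432410_a_at, gave -0.04 and -0.05.

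The activin and inhibin subunits were read on 1 or 2 probe sets each. Inhba, which encodes the βA subunit of activin A, read 1.76, 1.71, 1.45 and 1.25 in the E16.5 KO on probe set 1422053_at, all above the wildtype at 0.935 and 1.07 (log2 difference 0.62 ± 0.17 (SE), limma adjusted p = 0.0840), and 1.24, 1.11, 0.886 and 1.30 at E14.5, where the groups overlapped. Inhbb, the βB subunit, gave -0.21 at E14.5 and 0.45 at E16.5, with all 4 KO above at E16.5, on probe set 1426858_at. The second probe sets of Inhba (1458291_at, 0.15 and 0.01) and Inhbb (1426859_at, 0.01 and 0.09) overlapped the wildtype on both days. Inha, the α subunit of the inhibins, gave 0.23 and -0.21, with all 4 KO below at E16.5. None of the 3 genes passed on either day. Among the remaining ligands Tgfb3 gave 0.76 at E16.5 with overlapping groups, Bmp4 0.45, Bmp6 0.36 and Tgfb1 0.22 on probe set 1420653_at with all 4 KO above the wildtype, and Bmp5 between 0.03 and 0.67 over 3 probe sets. The other Tgfb1 probe set, 1445360_at, gave -0.03 with overlap. Gdf11 and Nodal lay between -0.09 and 0.20 at E16.5 and overlapped the wildtype on both days.

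Of the 33 receptor probe sets, 1 rose and 1 fell past the limit at E16.5 (6.06%, against 2.62% of all probe sets). With 1 probe set per gene, 0 of the 11 receptor genes were called. Tgfbr2, the type II receptor that binds TGF-β, read 2.71, 3.18, 2.05 and 1.67 times the wildtype mean on probe set 1426397_at, against 1.02 and 0.981 in the wildtype. Every KO pancreas was above both wildtype pancreata, and 16.5_KO_541L was highest and 16.5_KO_591D lowest (mean 2.40 ± 0.674 (SD, n = 4), log2 difference 1.22 ± 0.24 (SE), limma adjusted p = 0.0251). At E14.5 the KO pancreata read 2.17, 1.70, 1.33 and 1.86 against 0.911 and 1.09, again with no overlap, and the log2 difference of 0.80 ± 0.24 (SE) did not pass (limma adjusted p = 0.556). The other Tgfbr2 probe sets did not show this: 1422019_at gave 0.17 and -0.09, and 1425444_a_at gave 0.17 and 0.11. The E16.5 call rested on both wildtype pancreata and on 2 of the KO: without 16.5_WT_622A or 16.5_WT_628G the adjusted p was 0.109 and 0.115, and without 16.5_KO_541J or 16.5_KO_541L it was 0.0674 and 0.0503.

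Acvr1c encodes ALK7, a type I receptor for Nodal and some activins. On probe set 1438309_at the E16.5 KO pancreata read 0.542, 0.536, 0.665 and 0.678, against 0.819 and 1.18 in the wildtype, all 4 below (log2 difference -0.71 ± 0.16 (SE), limma adjusted p = 0.0449). At E14.5 the same probe set read 1.11, 1.04, 1.36 and 1.25 in the KO and 0.995 and 1.0048 in the wildtype, all 4 above, with a log2 difference of 0.24 that did not pass (limma adjusted p = 0.852). Probe set 1443225_at read 0.289, 0.298, 0.349 and 0.395 at E16.5 in the KO, below 0.436 and 1.56 in the wildtype, and its larger difference of -1.32 ± 0.35 (SE) did not pass (limma adjusted p = 0.0752), with the wildtype pair further apart than the KO pancreata among themselves. At E14.5 it overlapped the wildtype, with KO values of 0.993, 1.12, 1.17 and 1.12. The third probe set, 1428032_at, read 1.05, 1.0021, 1.05 and 1.01 at E14.5 and 1.03, 0.960, 1.06 and 1.13 at E16.5 in the KO and overlapped the wildtype on both days (log2 differences 0.04 and 0.06). The adjusted p of 1438309_at at E16.5 lay between 0.0592 and 0.307 when any of 14.5_WT_522B, 14.5_WT_522C or 16.5_WT_628G or 14.5_KO_540C, 14.5_KO_615B, 16.5_KO_541J, 16.5_KO_541L or 16.5_KO_591C was left out, and without 16.5_WT_628G the log2 difference was -0.44. For 1443225_at the adjusted p was 0.000187 without 16.5_WT_622A, where the difference was -2.24, and 0.344 without 16.5_WT_628G, where it was -0.40.

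Tgfbr1, the type I receptor for TGF-β, was below the wildtype in all 4 KO pancreata at E14.5 and above it in all 4 at E16.5 on probe set 1420895_at. It read 0.948, 0.690, 0.827 and 0.860 at E14.5 and 1.30, 1.85, 1.68 and 1.04 at E16.5, with wildtype values of 0.991 and 1.01 and 0.975 and 1.02, and neither difference passed (log2 differences -0.28 and 0.52, limma adjusted p = 0.876 and 0.209). Its other 2 probe sets lay between -0.07 and 0.18 at E16.5. Acvr2a, an activin type II receptor, read 0.847, 0.558, 0.856 and 0.817 at E14.5 on probe set 1437382_at, all below 0.953 and 1.05, and overlapped the wildtype at E16.5 (log2 differences -0.40 and -0.18). Its other probe set, 1451004_at, gave -0.08 and 0.18 with overlap. Bmpr1b, a type I BMP receptor, read 0.674, 0.529, 0.738 and 0.700 at E16.5 on probe set 1437312_at, all below 0.916 and 1.08 (log2 difference -0.61 ± 0.16 (SE), limma adjusted p = 0.0756), with -0.02 and -0.15 on its other 2.

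Bmpr1a, a type I receptor for BMPs, has the most probe sets of the list, 6, and they differed in direction. At E16.5 probe set 1425492_at read 1.38, 1.88, 1.47 and 1.12, all above 0.927 and 1.07 (log2 difference 0.53 ± 0.19 (SE), limma adjusted p = 0.186). The other 5 overlapped the wildtype, with KO values from 0.755 to 1.29 and log2 differences from -0.06 to 0.20. At E14.5 all 6 overlapped, with differences from -0.19 to 0.23. The remaining receptors gave smaller values. Acvr1, Acvr1b, Acvr2b, Tgfbr3 and Bmpr2 have 13 probe sets, whose log2 differences lay between -0.29 and 0.28 at E14.5 and between -0.30 and 0.30 at E16.5, and none passed. At E16.5 all 4 KO values lay below both wildtype values for Acvr1b 1433725_at and Acvr2b 1440525_at (-0.30 and -0.26). They lay above for Acvr2b 1439856_at and Bmpr2 1441652_at (0.24 and 0.10), and at E14.5 for Tgfbr3 1433795_at (0.22). Over all 33 receptor probe sets the log2 difference had a median of -0.02 on the earlier day and 0.08 on the later, against 0.02 and 0.03 over all probe sets.

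**Figure D2:**
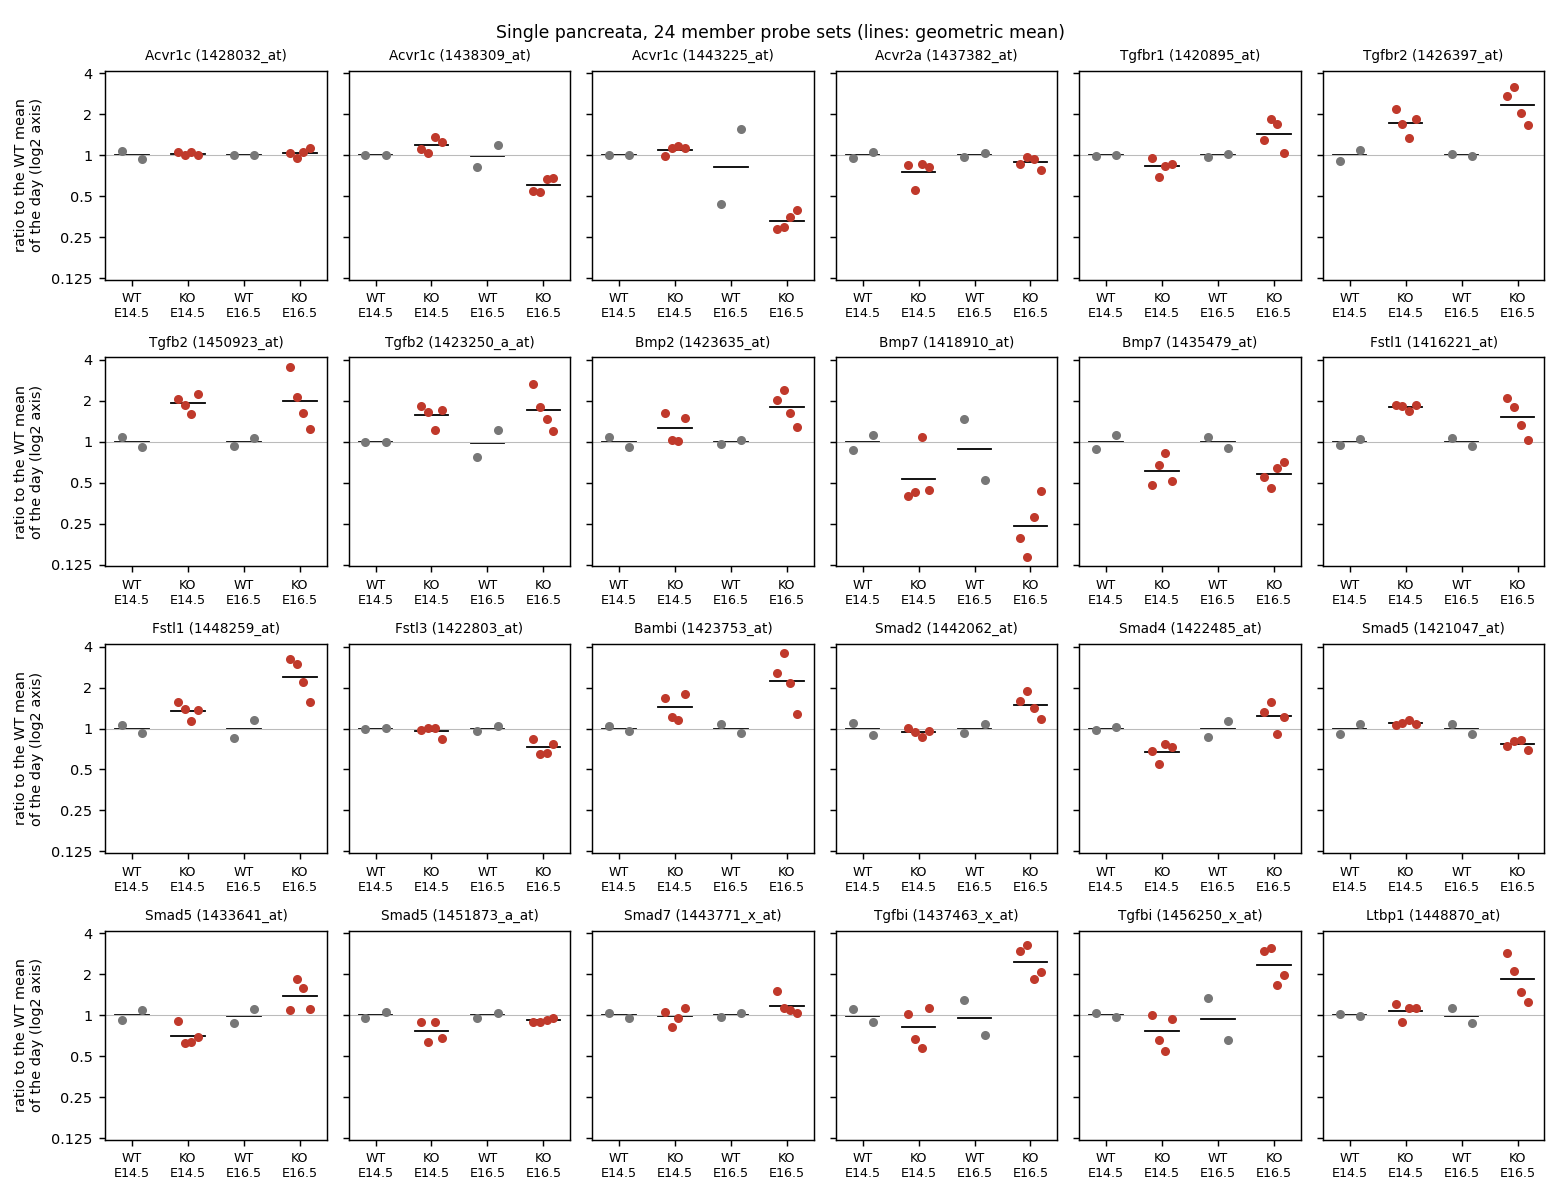
Ratio to the wildtype mean of the day (log2 axis) in single pancreata for the 24 member probe sets chosen by rule, with wildtype in grey, KO in red and the geometric mean of each group as a line. At E16.5 the 4 KO points of Tgfbr2, Fstl1 (1448259_at) and Tgfbi lie above both wildtype points, those of Acvr1c (1438309_at) lie below, and the wildtype points of Acvr1c (1443225_at) and Bmp7 lie far apart.

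Of the 9 antagonist probe sets, 5 had all 4 KO values above the wildtype at E14.5 (55.6%, against 8.17% of all probe sets) and 5 at E16.5 (55.6%, against 14.5% of all). All 4 lay below for 0 at E14.5 and for 1 at E16.5 (11.1%, against 11.1% of all). At E16.5 1 probe set passed (11.1%, against 2.62% of all), and with 1 probe set per gene 0 of the 7 antagonist genes did. Fstl1, a secreted glycoprotein related to follistatin, read 3.25, 2.96, 2.18 and 1.56 at E16.5 on probe set 1448259_at, against 0.853 and 1.15 in the wildtype. All 4 KO pancreata were above, with 16.5_KO_541J highest and 16.5_KO_591D lowest (mean 2.49 ± 0.765 (SD, n = 4), log2 difference 1.27 ± 0.25 (SE), limma adjusted p = 0.0256). At E14.5 this probe set read 1.56, 1.39, 1.14 and 1.36 against 1.07 and 0.934, also without overlap (log2 difference 0.44 ± 0.25 (SE), limma adjusted p = 0.808). The other Fstl1 probe set, 1416221_at, had its larger difference at E14.5, where the KO pancreata lay close together at 1.86, 1.84, 1.69 and 1.86 against 0.948 and 1.05 (log2 difference 0.86 ± 0.22 (SE)), and this was the lowest adjusted p of the list on that day (limma, 0.496). At E16.5 it read 2.12, 1.80, 1.33 and 1.04, with 16.5_KO_591D among the wildtype values of 1.07 and 0.932. The call of 1448259_at was lost without 16.5_WT_622A (adjusted p = 0.171) or 16.5_WT_628G (0.0534) and without 16.5_KO_541J (0.0592) or 16.5_KO_541L (0.0648).

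Bambi, a membrane decoy receptor without a kinase, read 2.57, 3.56, 2.18 and 1.27 at E16.5, against 1.08 and 0.922, and 1.67, 1.22, 1.16 and 1.80 at E14.5, against 1.04 and 0.957. All 4 KO pancreata were above the wildtype on each day, with log2 differences of 1.17 ± 0.32 (SE) (limma adjusted p = 0.0782) and 0.53 ± 0.32 (SE) (limma adjusted p = 0.830). Fstl3, which binds and neutralises activin, was the one antagonist with all 4 KO below at E16.5, at 0.839, 0.648, 0.660 and 0.774 against 0.953 and 1.05 (log2 difference -0.46 ± 0.13 (SE), limma adjusted p = 0.0803). Fst, the activin-binding follistatin, and Grem1, which binds BMPs, were above the wildtype in all 4 KO pancreata on both days, on Fst probe set 1421365_at by 0.30 and 0.31 and for Grem1 by 0.32 and 0.38 on the log2 scale. The other Fst probe set, 1434458_at, gave 0.14 and 0.31 and overlapped the wildtype on both days. Nog, a further BMP-binding antagonist, was above in all 4 at E16.5 only (0.31), and Chrd gave 0.24 and -0.09 with overlap. None of these passed on either day.

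Of the 17 Smad probe sets, 0 passed on either day by limma, with 3 under an unadjusted p of 0.05 on each day (17.6%, where 6.86% of all met it at E14.5 and 16.6% did at E16.5). All 4 KO pancreata were below the wildtype at E14.5 on 4 Smad probe sets (23.5%, against 8.06% of all) and above it on 1 (5.88%, against 8.17%). Smad3 held 1 of each, with log2 differences of -0.11 on probe set 1450472_s_at and 0.16 on 1450471_at. With 1 probe set per gene, 5 of the 7 Smad genes were higher at E14.5 (71.4%, against 53% of all named genes). Smad4, the Smad shared by both branches, read 0.686, 0.545, 0.763 and 0.725 on probe set 1422485_at, against 0.976 and 1.02 (log2 difference -0.57 ± 0.20 (SE), limma adjusted p = 0.629). At E16.5 it read 1.32, 1.55, 0.912 and 1.21 against 0.870 and 1.13 with overlap. Its other 2 probe sets gave -0.14 and -0.15 at E14.5.

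Smad5, which carries BMP signals, read 0.904, 0.625, 0.639 and 0.690 on probe set 1433641_at and 0.891, 0.638, 0.895 and 0.677 on 1451873_a_at at E14.5, each below its wildtype pair of 0.916 and 1.08 and 0.951 and 1.05 (log2 differences -0.50 ± 0.22 (SE) and -0.38 ± 0.14 (SE), limma adjusted p = 0.719 and 0.641). The third probe set, 1421047_at, went the other way at E14.5, at 1.06, 1.10, 1.16 and 1.09 against 0.918 and 1.08 with overlap (log2 difference 0.14). On the later day it was the one furthest below, at 0.738, 0.807, 0.823 and 0.699 against 1.08 and 0.919 (log2 difference -0.38 ± 0.11 (SE), limma adjusted p = 0.0930), while 1433641_at was at 0.47 with overlap. Smad2, a mediator of activin and TGF-β, read 1.59, 1.89, 1.42 and 1.17 at E16.5 on probe set 1442062_at, all above 0.919 and 1.08 (log2 difference 0.58 ± 0.17 (SE), limma adjusted p = 0.0907), and 0.27 on its other one. The inhibitory Smad7 read 1.50, 1.13, 1.10 and 1.04 at E16.5 on probe set 1443771_x_at, just above 0.969 and 1.03 (log2 difference 0.24), and its other probe set, 1423389_at, gave 0.06 and 0.07 with overlap. Smad1, Smad3 and Smad6 lay between -0.35 and 0.30 at E14.5 and between -0.43 and 0.17 at E16.5, with no E16.5 probe set clear of the wildtype.

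Among the targets and matrix partners, Tgfbi rose at E16.5. It encodes a secreted matrix protein named for its induction by TGF-β. Probe set 1437463_x_at read 2.97, 3.29, 1.85 and 2.07 in the KO and 1.28 and 0.715 in the wildtype, with all 4 KO above and 16.5_KO_541L highest (mean 2.54 ± 0.694 (SD, n = 4), log2 difference 1.37 ± 0.32 (SE), limma adjusted p = 0.0486). At E14.5 it read 1.02, 0.670, 0.578 and 1.12 against 1.11 and 0.885, with overlap and a log2 difference of -0.28. Names ending in _x_at mark probe sets with probes that also match other transcripts, and the 3 further Tgfbi probe sets gave 1.33 (1456250_x_at, KO 2.99, 3.12, 1.68 and 1.97, limma adjusted p = 0.0608), 0.96 (1448123_s_at) and 0.47 (1415871_at) at E16.5, the last 2 overlapping the wildtype. All 4 were below 0 at E14.5, from -0.60 to -0.28, with overlap. The adjusted p of 1437463_x_at at E16.5 lay between 0.0510 and 0.315 when any of 14.5_WT_522B, 14.5_WT_522C, 16.5_WT_622A or 16.5_WT_628G or 14.5_KO_540C, 14.5_KO_540G, 14.5_KO_615B, 16.5_KO_541J, 16.5_KO_541L or 16.5_KO_591C was left out.

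Id1 and Id3, inhibitors of bHLH factors and common BMP targets, gave log2 differences of 0.71 and 1.05 at E16.5, but 16.5_WT_622A read 1.27 and 1.36 and 16.5_KO_591D read 1.24 and 1.01, so the groups overlapped (limma adjusted p = 0.175 and 0.191). Id2 overlapped on all 3 probe sets on both days, between -0.19 and 0.26. Ltbp1, which holds latent TGF-β in the matrix, read 2.87, 2.10, 1.48 and 1.26 at E16.5 on probe set 1448870_at, all above 1.13 and 0.870 (log2 difference 0.88 ± 0.27 (SE), limma adjusted p = 0.110), and its other 2 probe sets gave -0.08 and 0.13. Ltbp2 gave 0.26, with 16.5_KO_541J at 1.78 and the other 3 between 0.980 and 1.10. None of these passed.

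**Figure D3:**
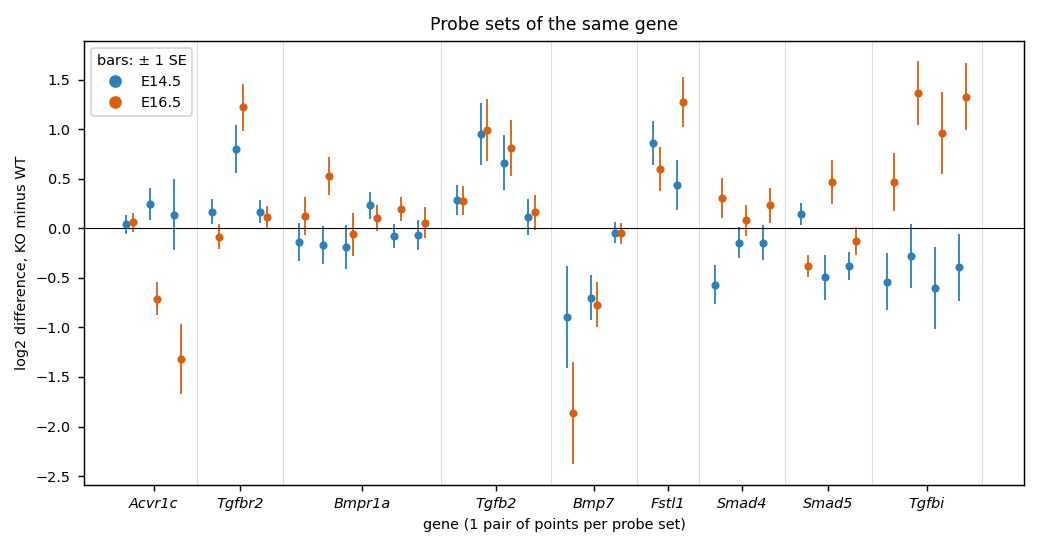
Log2 difference between KO and wildtype at E14.5 and E16.5 for every probe set of 9 genes, 1 pair of points per probe set, with bars of 1 SE. Within Acvr1c the E16.5 values run from -1.32 to 0.06 and within Tgfbr2 from -0.09 to 1.22, while the 4 Tgfbi probe sets lie above 0 at E16.5 and below 0 at E14.5.

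Whether the KO effect of a member differed between the days was tested as the difference of the 2 log2 differences. It passed for 0 of 96 probe sets by limma, against 0.349% of all probe sets, with 19 under an unadjusted p of 0.05 (10.4% of all) and a lowest adjusted p of 0.134. In the single pancreata, 9 member probe sets lay beyond the wildtype in the same direction on both days, 9.38% against 3.17% of all probe sets. They were Tgfbr2 1426397_at, Tgfb1 1420653_at, Tgfb2 1450923_at, Fst 1421365_at, Fstl1 1448259_at, Grem1 and Bambi above, and Bmp7 1435479_at and Smad5 1451873_a_at below. Another 2 lay beyond it in opposite directions (1.7% of all probe sets): Acvr1c 1438309_at, above at E14.5 and below at E16.5, and Tgfbr1 1420895_at, the reverse. Each day has its own wildtype pair, so the days share no control.

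A wider list of 66 measured pathway genes that are not members, with 142 probe sets, was read in the same fit. It held 0 called probe sets at E14.5, with 5 at an unadjusted p under 0.05 (3.52%, against 6.86% of all probe sets). The methods' t-test without correction called 11 of the 142 there, against 1206 higher and 1063 lower among all 45037. At E16.5 the wider list held 5 called probe sets (3.52%, against 2.62% of all), 3 higher and 2 lower, and quantile normalization left 0. Sostdc1, a secreted antagonist of BMPs that also acts on Wnt signals, fell most. Its probe set 1449340_at read 0.365, 0.290, 0.272 and 0.341 at E16.5, against 0.882 and 1.12 (log2 difference -1.66 ± 0.16 (SE), limma adjusted p = 0.000518), and 1460250_at read 0.465, 0.353, 0.341 and 0.477, against 0.851 and 1.15 (log2 difference -1.29 ± 0.18 (SE), limma adjusted p = 0.00526). At E14.5 both overlapped the wildtype (0.04 and 0.02), and the difference between the days passed for 1449340_at (-1.70, limma adjusted p = 0.0135). That call was lost without 14.5_WT_522B (adjusted p = 0.116) or 14.5_WT_522C (0.0808).

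Snai2, a transcriptional repressor induced by TGF-β, read 2.36, 2.46, 1.89 and 1.57 at E16.5 on 1447643_x_at, against 0.899 and 1.10 (log2 difference 1.03 ± 0.17 (SE), limma adjusted p = 0.0112), and without 16.5_WT_622A the adjusted p was 0.0895. Its other probe set, 1418673_at, gave 0.87 with all 4 KO above the wildtype. Dcn, the matrix proteoglycan decorin, which binds TGF-β, read 4.54, 4.12, 2.12 and 1.70 on 1449368_at, against 0.832 and 1.17 (1.54 ± 0.35 (SE), limma adjusted p = 0.0430), and its probe set 1441506_at gave 0.23 with overlap. Amhr2, the receptor of anti-Müllerian hormone, read 1.53, 1.35, 1.36 and 1.42 on 1457021_x_at, against 1.07 and 0.932 (0.50 ± 0.12 (SE), limma adjusted p = 0.0463), while its probe sets 1427989_at and 1438967_x_at gave -0.05 and 0.44 with overlap. For Dcn the adjusted p lay between 0.0579 and 0.239 without any one of 14.5_WT_522B, 14.5_WT_522C, 16.5_WT_622A or 16.5_WT_628G or 14.5_KO_540C, 14.5_KO_615B, 16.5_KO_541J or 16.5_KO_541L, and for Amhr2 between 0.0545 and 0.256 without any one of 14.5_WT_522B, 14.5_WT_522C, 16.5_WT_622A or 16.5_WT_628G or 14.5_KO_615A, 16.5_KO_541J, 16.5_KO_541L or 16.5_KO_591C. The 4 groups of this wider list had median log2 differences of 0.05 to 0.10 at E14.5 and 0.07 to 0.17 at E16.5 over their probe sets.

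Markers of other cells in the organ were read beside these results, as the median log2 ratio over a list in each pancreas, with 1 probe set per gene chosen by its name. Of all named genes read this way, 57.5% were higher in the KO at E16.5 and 3.03% passed. At E14.5 53% were higher and 0.0165% passed. Mesenchymal markers were higher in the E16.5 KO for 12 of 14 genes, with 3 passing (Col3a1, Col5a1 and Lum), and their median was 0.63, 1.07, 0.20 and 0.27 in 16.5_KO_541J, 16.5_KO_541L, 16.5_KO_591C and 16.5_KO_591D, against -0.000938 and 0.000708 in the wildtype. Tgfbr2, Fstl1 and Tgfbi had their 2 highest values in 16.5_KO_541J and 16.5_KO_541L as well. This order was not particular to mesenchyme. Leukocyte medians were 0.44 and 0.46 in these 2 pancreata, against 0.02 and 0.03 in 16.5_KO_591C and 16.5_KO_591D. Medians of neuron and glia markers were 1.07 and 0.997, against 0.40 and 0.29. Endocrine and endothelial medians were instead highest in 16.5_KO_541L and 16.5_KO_591C. At E14.5 the mesenchymal median was 0.21 to 0.47 in the KO, with 13 of 14 genes higher and 0 passing. Endocrine medians were 0.16 to 0.90 on that day (10 of 11 genes higher) and leukocyte medians 0.17 to 0.36 (7 of 7). Endothelial medians were -0.03 to 0.16 (4 of 7), those of neurons and glia -0.02 to 0.50 (4 of 5) and duct medians -0.32 to -0.02 (3 of 7). In each of these lists 0 passed at E14.5. Acinar markers were lower at E16.5 for 11 of 12 genes, with 6 passing, and their median was -3.47 to -1.07 in the KO, against -0.93 to 0.41 at E14.5. The part of these markers in the members' values was not tested, and ratios cannot show whether a marker was at or near 0.

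Among the other lists at E16.5, endocrine markers had KO medians of -0.06 to 1.08 (0 of 11 genes passing), duct markers -0.61 to -0.37 (2 of 7 passing, both lower), endothelial markers 0.05 to 0.38 (0 of 7), leukocyte markers 0.02 to 0.46 (1 of 7, higher) and markers of neurons and glia 0.29 to 1.07 (2 of 5, higher). Over all named genes 3.03% passed on that day. Of the member lists, ligands and antagonists had medians above both wildtype pancreata in every E16.5 KO pancreas, at 0.16 to 0.33 and 0.16 to 0.38, while receptors lay between -0.14 and 0.11 and Smads between -0.09 and 0.08. Within the KO group the pancreata ranked unevenly: 16.5_KO_591D was nearest to the wildtype in 15 of the 24 member probe sets with all KO above at E16.5 (62.5%, against 36.1% of all such probe sets), and 14.5_KO_615A was nearest in 8 of 13 at E14.5 (61.5%, against 42.6%).

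**Figure D4:**
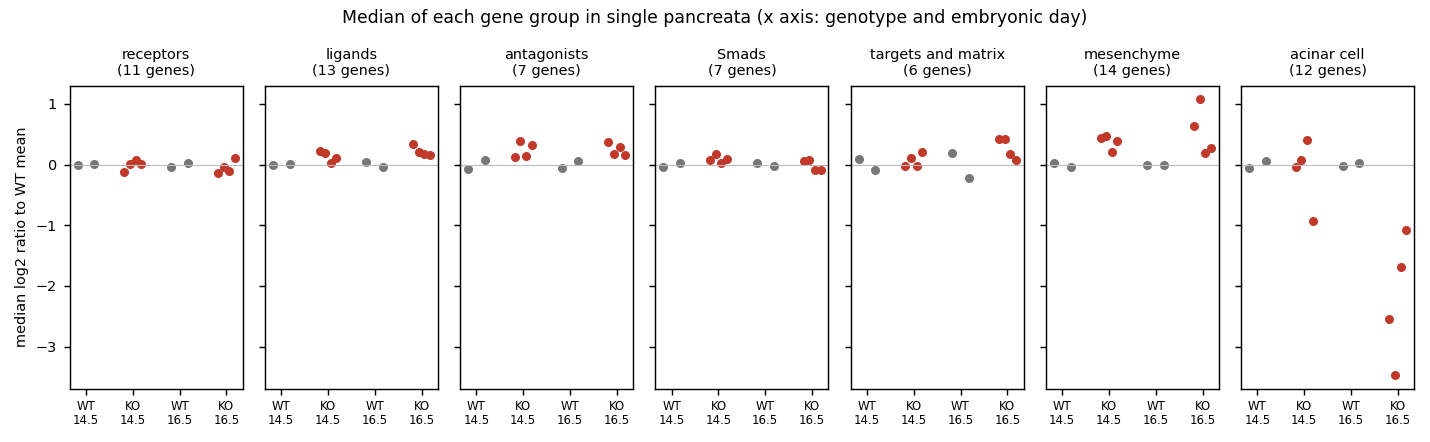
Median log2 ratio to the wildtype mean of the day in single pancreata, for the 5 groups of member genes and for mesenchymal and acinar markers, with 1 probe set per gene chosen by its name, wildtype in grey and KO in red. At E16.5 the KO pancreata with the highest mesenchymal medians (0.63 and 1.07) have the lowest acinar medians (-2.54 and -3.47), and the member groups stay within 0.43 of the wildtype mean.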

How the data were processed

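Per the paper's methods, RNA of each pancreas went through 2 rounds of amplification, and the arrays were summarised with RMA in GeneSpring. What the authors deposited is a linear ratio, each signal divided by its day's wildtype average, and the wildtype pair of a day sums to 2 on every probe set (to within 3e-07). The 64 control probe sets were set aside. Of the 45037 others, 34945 carry 1 symbol, 932 several and 9160 none. For the fit, log2 ratios of all 12 arrays entered limma (version 3.58.1, R 4.3.3) as 4 groups, with 8 residual and 3.67 prior degrees of freedom, two-sided tests and Benjamini-Hochberg adjustment over the 45037. The code was tested on simulated data. The number of arrays limits the precision. The labels do not say whether embryos came from separate litters, so p values measure the spread between these embryos.

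The members and lists were chosen with earlier results of these data known. Probe sets were named when past the limit, when among the 3 largest differences of a role and day with groups that do not overlap, for all of Acvr1c, and for the gene with the most probe sets where these differ in direction. Other probe sets of those genes and some further members are given as values, some of them by range. One probe set per gene was picked from its name, plain _at names before _a_at and these before _s_at and _x_at, and the lowest number within a kind.

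Alternative settings covered the variance model (trended and robust), fits of single days, quantile normalization, median centring, array weights, a random block for the number in the array name (statmod 1.5.0), removal of _x_at and _s_at probe sets, the methods' t-test and leaving out each array. A filter on dim probe sets was not run, since ratios carry no level. Figures were drawn with matplotlib 3.10.9, and promoter windows with their coordinates are RefSeq's for assembly GRCm38.p6.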

Additional observations from a re-analysis of the deposited data

Results flagged for a closer look

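Among 43 sets of 4 KO values examined, 2 held a single pancreas far from the other 3, where chance gives about 2.15. For Acvr2a 1437382_at at E14.5, 14.5_KO_540G read 0.559 and the other KO pancreata 0.817 to 0.856, and the gap took 0.89 of the range. For Fstl1 1416221_at at E14.5, 14.5_KO_615A read 1.69 and the others 1.84 to 1.86, a share of 0.861, and all 4 lay well above the wildtype pair of 0.948 and 1.05. The effect of the KO on Sostdc1 1449340_at differed between the days by -1.70 on the log2 scale (SE 0.23, limma adjusted p = 0.0135), the KO mean being 1.04 on the earlier day and 0.317 on the later.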

How the results depend on the processing

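Within a day, many settings cannot change a log2 difference. These are the variance model, a single-day fit, the random block, removal of _x_at and _s_at probe sets, the t-tests and leaving out an array of the other day. A call gained with the uncorrected t-test is an unadjusted p under 0.05. Of 1019 repeated values over 49 named pairs of probe set and comparison, 900 kept their direction and side of the limit, 85 lost a call, 25 gained one and 9 turned in direction, none of them called. With an array left out these were Acvr1c 1428032_at at E14.5 (-0.056 to 0.14, below 0 without 14.5_WT_522C) and, of Bmpr1a, 1425491_at at E14.5 (-0.35 to 0.069, above 0 without 14.5_WT_522B), 1425493_at at E16.5 (-0.16 to 0.057, above 0 without 16.5_KO_591D), 1425494_s_at at E14.5 (-0.15 to 0.018, above 0 without 14.5_WT_522C or 14.5_KO_540G) and at E16.5 (-0.011 to 0.13, below 0 without 16.5_WT_628G or 16.5_KO_541L) and 1451729_at at E16.5 (-0.025 to 0.42, below 0 without 16.5_WT_622A). Array weights gave 0.0098 for 1425493_at at E16.5. The 4 member calls at E16.5 became 0 with a trended and robust variance, with E16.5 fitted alone, with quantile normalization and with the methods' t-test after Benjamini-Hochberg adjustment, 2 with median centring, 11 with array weights and 17 with the uncorrected t-test. Leaving out 1 array gave 0 (without 16.5_WT_628G, 16.5_KO_541J or 16.5_KO_541L) to 16 (without 16.5_KO_591D), where Bambi (adjusted p = 0.00635), Smad2 (0.0176), Tgfb2 (0.0248), Ltbp1 (0.0259), Bmp7 (0.0297) and Bmp2 (0.0303) also passed. At E14.5 the uncorrected t-test called 7, and every other setting 0. Over all 45037 probe sets at E16.5, median centring called 200 higher and 773 lower, array weights 1048 and 1332, and the uncorrected t-test 2694 and 2845. The fit without 16.5_KO_591D called 1572 and 1290. With _x_at and _s_at probe sets removed, 290 higher and 699 lower of 40508 were called. At E14.5 the uncorrected t-test called 1206 and 1063 of all. The difference between the days was called for 1 member, Acvr1c, with array weights and without 16.5_WT_622A (range 0 to 1).

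For the wider list, 5 at E16.5 became 1 with the trended variance and with E16.5 alone, 0 with quantile normalization and the corrected t-test, 3 with median centring and without _x_at and _s_at probe sets, 14 with array weights, 18 with the uncorrected t-test, and 3 to 18 with an array left out (18 without 16.5_KO_591D). At E14.5 the uncorrected t-test gave 11. Counts over all probe sets with median centring, without _x_at and _s_at probe sets, with array weights, with the uncorrected t-test and without 16.5_KO_591D are given in the paragraph above. The 1 call for the difference became 0 with the trended variance and quantile normalization, 5 with array weights, 2 with the number in the array name as a block (consensus correlation -0.0876), and 0 to 3 with an array left out (0 without 14.5_WT_522B or 14.5_WT_522C, 3 without 16.5_KO_591D). Quantile normalization was tried on the counts of probe sets clear of the wildtype after the data had been seen. Recounted over all 96 member probe sets, 11 were clear at E14.5 (20 as deposited) and 19 at E16.5 (35 as deposited). Over all probe sets the shares fell as well, from 16.2% to 9.38% and from 25.6% to 15.5%. Genes higher in the KO numbered 27 to 33 at E14.5 and 28 to 32 at E16.5 under all settings run. The causes were not tested. A filter on dim probe sets was not run. Where a wildtype array was left out, the lone one was assumed to vary like the other groups. No paired analysis was possible because wildtype and KO arrays share no replicate number.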

Other observations

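Some pathway genes outside the member list stood out once their values had been seen, and none of those given here passed the adjusted limit. Gdf10, a BMP-related ligand, had the largest KO values seen in the wider list: 5.21, 5.91, 3.05 and 4.48 times the wildtype mean at E14.5 and 4.69, 7.19, 3.25 and 1.54 at E16.5, against 1.35 and 0.653 and 0.857 and 1.14 in the wildtype. All 4 KO pancreata were above the wildtype on each day, with log2 differences of 2.27 ± 0.50 (SE, limma adjusted p = 0.405) and 1.86 ± 0.50 (limma adjusted p = 0.0756). Bgn, the matrix proteoglycan biglycan, read 4.21, 2.80, 2.02 and 1.47 at E16.5 on probe set 1448323_a_at, against 1.10 and 0.896 (log2 difference 1.29, limma adjusted p = 0.0551), and its other 2 probe sets gave 1.04 and 0.84 with all 4 KO above the wildtype. Pmepa1, a TGF-β target that restrains the signal, read 3.02, 2.23, 1.71 and 1.40 at E16.5 on probe set 1422706_at, against 0.920 and 1.08 (log2 difference 1.01, limma adjusted p = 0.0692), while its probe sets 1422705_at and 1452295_at gave 0.12 and -0.10 and overlapped the wildtype. On each of these E16.5 probe sets of Bgn and Pmepa1 the pancreata kept the order 16.5_KO_541J, 16.5_KO_541L, 16.5_KO_591C, 16.5_KO_591D from high to low.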
